A study of Mus musculus with 2 samples.

Results

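Cytosolic ribosomal proteins are the protein parts of the ribosome outside mitochondria: those named Rps belong to the small (40S) subunit and those named Rpl to the large (60S) subunit. The genes were chosen by symbol (Rps or Rpl and a number, with Rpsa, Rplp0, Rplp1 and Rplp2, and without the Rps6k kinases), which gave 86 of the 31053 genes listed. Of these, 33 encode 40S proteins and 52 encode 60S proteins. The remaining one, Rps19bp1, encodes a protein that binds Rps19 and is not itself part of a subunit, so it is named wherever it enters a count.

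The knockout cells were splenic natural killer (NK) cells from NKp46CreEP3F/F mice, in which Cre driven by NKp46 (the gene Ncr1) acts on floxed alleles of the prostaglandin receptor EP3 (Ptger3). The control cells came from EP3F/F mice, which carry the same floxed alleles with no Cre named. All mice were C57BL/6; their age is not given in the sources used here. Cells positive for CD27 and CD11b were sorted from 2 mice per genotype, pooled, and made into 1 droplet library of 3' tags per genotype, so there is no replicate, no test and no p-value for any difference below, and every interval covers counting error only.

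Ribosomal protein mRNAs are among the most abundant in any cell, and most begin with a C followed by an unbroken run of C and T, the terminal oligopyrimidine (TOP) motif, through which the kinase mTORC1 and the RNA-binding protein Larp1 control their translation together. The subunits hold these proteins in fixed proportions, so their mRNAs are usually made in near balance. Lymphocytes raise ribosome production when they are activated, while resting cells make fewer, and a few members have paralogues that differ between tissues.

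The starts of 8 members named below are shown as a description, and no RNA level below rests on these sequences. Shown are the 4 with an RNA level that stood above the other members in the knockout library and have an entry in the table of starts, 2 paralogues whose share of their pair differed between cell types, and 2 members with no UMI in NK cells. Any link between a start and an RNA level was not tested. A UMI is a unique molecular identifier, so a count of UMIs is a count of captured RNA molecules. Each line holds 25 bases before and 25 bases from the annotated start, 5′ to 3′, from RefSeq on GRCm38.p6, and capitals mark the longest run of C and T, of at least 5 letters and beginning with C, in those 50 bases, in Rps27l the first of 2 equally long ones. The windows lie at chr7:45128721-45128770 (minus strand) for Rpl13a, chr11:114668555-114668604 (plus) for Rpl38, chr3:90213624-90213673 (minus) for Rps27, chr9:114982715-114982764 (minus) for Rps27rt, chr3:28805483-28805532 (plus) for Rpl22l1, chr9:66946061-66946110 (plus) for the first of 2 starts of Rps27l, chr17:24727801-24727850 (plus) for the first of 2 starts of Rpl3l and chr12:66284377-66284426 (minus) for Rpl10l.
Rpl13a: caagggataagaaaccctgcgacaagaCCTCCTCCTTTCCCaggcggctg
Rpl38: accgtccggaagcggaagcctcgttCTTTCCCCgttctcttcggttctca
Rps27: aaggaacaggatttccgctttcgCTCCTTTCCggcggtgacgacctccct
Rps27rt: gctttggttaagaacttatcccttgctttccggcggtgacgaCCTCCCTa
Rpl22l1: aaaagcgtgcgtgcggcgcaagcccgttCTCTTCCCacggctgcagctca
Rps27l: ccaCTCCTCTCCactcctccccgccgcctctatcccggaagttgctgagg
Rpl3l: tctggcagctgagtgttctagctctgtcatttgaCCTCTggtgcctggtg
Rpl10l: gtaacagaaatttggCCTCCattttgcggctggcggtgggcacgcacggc

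The run began at base 1 of the annotated start in Rpl38, at base 3 in Rpl13a and at base 4 in Rpl22l1, and 2 bases before the start in Rps27. It lay farther off in the rest, at base 18 in Rps27rt and base 10 in Rpl3l, and 22 bases before the start in Rps27l and 10 before it in Rpl10l. Rps27 and Rps27rt, its retrogene, shared an identical stretch of 38 bases that began at base 2 of Rps27 and base 1 of Rps27rt. A window was held for 66 of the 86 members, and a run of 5 or more letters read on from a C at the first base, whatever stood before it, was found in 14 of them (21.2%), against 3.01% of the 27025 genes in the table. A run of 5 or more beginning within 10 bases of the start was found in 40 of 66 members (60.6%) and in 34.4% of all genes, and a run of 8 or more within 50 bases in 53 of 66 (80.3%) and in 31.99% of all genes. Only the strand of the transcript was read, a gene with several starts counted if any of them held the run, the length of 8 was chosen after seeing the data, and a run is a match of letters, not evidence of control.

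The knockout library held 10615 barcodes and 42795121 UMIs and the control library 11785 barcodes and 69853026 UMIs, with a median of 3745 UMIs per barcode in the knockout and 5641 in the control. After barcodes with under 500 genes or over 10% mitochondrial UMIs were left out, 8796 knockout and 9848 control cells carried at least 3 UMIs of 2 or more NK receptor genes with at most 2 UMIs of any other lineage. These NK-gated cells are the base of most values below. Ptger3 had 0 UMIs in the 8796 knockout NK-gated cells, which allows up to 0.0341% of cells with a UMI, and 12 UMIs in 11 of the 9848 control cells (0.112%), so at this depth the target gene is a thin check of the labels, and the floxed exons are not given in the sources used here. Haemoglobin and other erythroid genes summed to 115 counts per 1000000 UMIs (CPM) in knockout and 24.2 CPM in control NK-gated cells. The libraries shared 33 barcodes.

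Ribosomal protein RNA was a large part of the molecules captured in these cells, and a slightly larger part in the knockout library. In NK-gated cells 9401856 of 36811501 UMIs (25.5%, exact binomial 95% interval 25.53 to 25.55%) came from the 86 genes in the knockout, against 14900620 of 61299510 (24.3%, 24.30 to 24.32%) in the control, a difference of 1.23 percentage points. The median cell held 24.3% in the knockout and 23.4% in the control, with quartiles of 21.2 and 27.8% in the knockout and 20.3 and 26.6% in the control, so the ranges of the cells overlap over most of their width. The libraries also differed in their mix of maturation states (defined below), with 3734 of 8618 thinned cells immature-marked in the knockout and 1985 of 9703 in the control. These counts rest on the marker lists. Without the marker genes Ltb and Lgals1, 5129 knockout and 3993 control cells were immature-marked, and 1295 and 2167 mature-marked. Within immature-marked, intermediate and mature-marked cells knockout minus control was 0.97, 0.39 and 0.89 points, each under the pooled difference, and for the median cell 0.60, 0.20 and 0.44 points. A share cannot tell more ribosomal protein RNA from less of the other RNA. The 40S genes took 11.7% of UMIs in the knockout and 10.97% in the control, and the 60S genes 13.9% and 13.3%, which put the ratio of 60S to 40S UMIs at 1.19 in the knockout and 1.22 in the control. Mitochondrial ribosomal protein genes, which the rule leaves out, took 0.467% of UMIs in the knockout and 0.432% in the control.

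**Figure D1:**
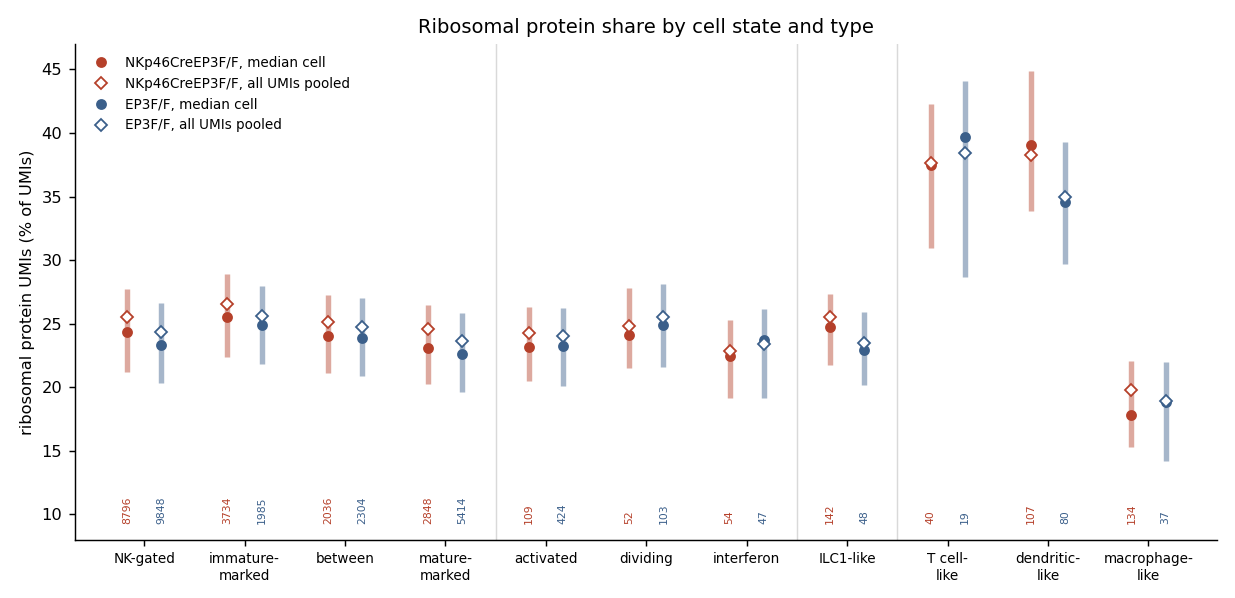
Share of UMIs from ribosomal protein genes (y axis, percent) in each cell state and type, NKp46CreEP3F/F in red and EP3F/F in blue. Filled circles are the median cell, bars the quartiles of cells, open diamonds all UMIs of the gate pooled, and the small numbers count cells. T cell-like and dendritic-like cells sit at 35.0 to 38.4% pooled, NK states at 22.8 to 26.6%, and macrophage-like cells at 18.9 to 19.8%.

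The share rose with the depth of the cell. Depth here is all UMIs of a cell, the ribosomal protein UMIs among them, so part of this relation is built in. Among NK-gated cells the Spearman correlation of share with UMIs per cell was 0.54 in the knockout (8796 cells of 1 library) and 0.51 in the control (9848 cells of 1 library). When each library was cut by UMIs per cell into 5 classes of equal size, the pooled share ran through 21.1, 22.7, 24.4, 26.5 and 28.5% from the shallowest to the deepest knockout class, and through 20.2, 21.7, 23.6, 25.7 and 26.5% in the control. The knockout value was the higher one in each of the 5 classes. At the same absolute depth of 3000 to 5000 UMIs the gap was wider, 24.7% in 5195 knockout cells and 20.7% in 2841 control cells, but that window holds the middle of the knockout library and the shallow end of the control library. Each genotype is 1 library, and depth differed between the libraries as a whole, so genotype, library and depth cannot be told apart here. Within that window cells of a library still differed by more than counting: the standard deviation over cells was 4.19 percentage points in the knockout and 3.78 in the control, against 0.699 and 0.624 for binomial counting alone. The 40S and 60S shares of a cell went together, with a Spearman correlation of 0.90 in both libraries.

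Nearly all members were abundant. At least 1000 CPM were reached by 72 members in the knockout and 74 in the control, and the median member stood at 2900 CPM in the knockout and 2874 in the control. Since each molecule gives one 3' tag, these CPM values are not scaled by transcript length. The 5 highest were Rps27 (8485 CPM in knockout and 6287 in control cells), Rps24 (7358 and 7198), Rps29 (7559 and 5984), Rplp1 (5778 and 5794) and Rpl37a (5643 and 5020). Rplp1 is one of the acidic proteins of the ribosomal stalk, and the others are small core proteins of their subunits. These 5 are mostly alike between the libraries except for Rps27 and Rps29, which are higher in the knockout.

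At the other end stood the paralogues. Rpl10l and Rpl3l, known in the mouse from testis and from muscle, had no UMI in NK-gated cells of either library. Rpl39l, another gene known from testis, had 3 UMIs in the knockout and 81 in the control (0.0815 and 1.32 CPM, with a counting interval of the log2 ratio from -6.33 to -2.42), too few to count as measured. Rpl7l1 stood at 51.1 CPM in the knockout and 54.6 in the control, Rps27l at 199.6 and 208.9, Rps27rt at 450.7 and 336.8, Rpl36al at 612.7 and 565.3, and Rpl22l1 at 825.6 and 786.0. Of these 5 paralogues, only Rps27rt lay clearly apart between the libraries. Measured here means a mean of at least 10 CPM over both libraries, and 83 members passed.

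Between the genotypes most members kept nearly the same level, and single genes stood out. The log2 ratio of knockout over control in NK-gated cells had a median of 0.06 over the 83 members, with a standard deviation of 0.17 over members, against a median of -0.07 and a standard deviation of 0.45 over all 7327 measured genes. Ratios of 0.32 or more in size were found in 6 members, 5 higher and 1 lower, where 43.9% of all measured genes had one, 14.8% higher and 29.1% lower. Among genes of at least 100 CPM, where 81 of the members fall, the share was 36.4%, with 10.6% higher and 25.8% lower. A distance of at least 0.32 from the members' own median marked 5 members as outlying: Rpl13a, Rps27, Rpl38 and Rps27rt above it and Rpl29 below it. The same distance from the median of all measured genes marks 44.3% of those genes, and 36.2% of those of at least 100 CPM. Just inside the rule lay Rps27rt (log2 ratio 0.42), Rpl38 (0.43) and Rps27 (0.43), and just outside it Rps29 (0.34) and Rpl27 (0.31). These values are ratios, while the rule reads their distance from the members' median of 0.06. Measured against the median of all genes in place of the members' own, 8 members were outlying, Rps29, Rpl27 and Rpl5 being added. In cells of 3000 to 5000 UMIs 4 were, of which Rpl13a, Rpl38 and Rpl29 were also outlying over all depths, while Rps27 and Rps27rt were not and Rpl7l1 was added. The ratios of Rps27 (0.45) and Rps27rt (0.41) in that window were close to those over all depths, and it was the members' median that stood higher there, at 0.23. Rpl13a stood at 0.67, Rpl38 at 0.61 and Rpl29 at -0.62 in the window.

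Rpl29 showed the largest difference of any measured member. This 60S protein is dispensable for life in the mouse, where its loss gives small animals. It had 29625 UMIs or 804.8 CPM in the knockout and 89729 UMIs or 1464 CPM in the control, a log2 ratio of -0.86 (counting interval -0.88 to -0.84). It was the only one of the 83 measured members lower by at least 0.32.

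Rpl13a, a 60S protein that in human myeloid cells also serves in a complex that silences inflammatory mRNAs, stood at 633.4 CPM in the knockout and 422.8 CPM in the control (log2 0.58, 0.56 to 0.61). Rps27, a zinc-finger protein of the 40S subunit, gave a log2 ratio of 0.43 (0.43 to 0.44), and its retrogene Rps27rt one of 0.42 (0.39 to 0.45). Rpl38, known in the mouse embryo for its part in translating homeobox mRNAs, stood at 5534 CPM in the knockout and 4119 CPM in the control (log2 0.43, 0.42 to 0.43). These counting intervals are narrow because the counts are large, and they say nothing of the spread between mice or libraries.

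**Figure D2:**
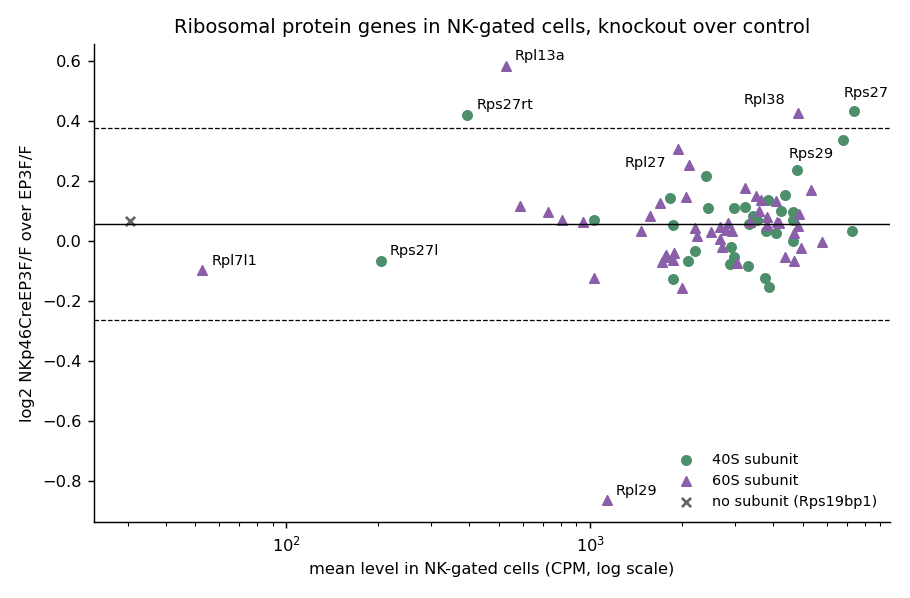
Log2 ratio of NKp46CreEP3F/F over EP3F/F (y axis) against the mean level (x axis, CPM, log scale) of the 83 measured members in NK-gated cells, by subunit. The solid line is the members' median (0.06) and the dashed lines lie 0.32 from it; Rpl13a, Rps27, Rpl38 and Rps27rt lie above them and Rpl29 below.

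Rpl29, Rpl38 and Rps27 differed in the same direction in the states and types of cells within the libraries, which share the libraries but not the cells, while Rpl13a and Rps27rt did not do so clearly in every type. Rpl29 stood at 846.7, 770.0 and 775.5 CPM in immature-marked, intermediate and mature-marked knockout NK cells (states defined below), against 1557, 1483 and 1420 CPM in the control, giving log2 ratios of -0.88, -0.95 and -0.87. ILC1-like cells also carry Ncr1 (1014 CPM in the knockout and 904.5 in the control). In them Rpl29 was lower in the knockout library too, at 980.8 CPM against 1538 in the control (log2 -0.65, counting interval -0.84 to -0.45). In cells outside the NK lineage it was lower as well: 1238 and 1827 CPM in T cell-like cells (-0.56, -0.83 to -0.29), and 1149 and 1744 CPM in dendritic-like cells (-0.60, -0.86 to -0.35), knockout first in each pair. In macrophage-like cells it had 647.4 CPM in the knockout and 841.9 in the control, and the interval of the log2 ratio (-0.90 to 0.16) includes 0. NKp46 is known from NK cells and some other innate lymphocytes. Rpl38 was higher in the knockout library in every gate, with log2 ratios from 0.34 to 0.44 and all intervals above 0.

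Rps27 was also higher in the knockout library in all gates, least in T cell-like cells (12174 CPM in knockout and 10924 in control, log2 0.16, 0.05 to 0.26) and most in macrophage-like cells (3750 and 2420 CPM, log2 0.63, 0.35 to 0.93). Rpl13a gave log2 ratios of 0.66 in ILC1-like and 0.71 in T cell-like cells with intervals above 0, while in dendritic-like (0.32, -0.12 to 0.77) and macrophage-like cells (-0.0019, -0.75 to 0.82) the interval includes 0. Rps27rt was seen in too few molecules outside the NK states to fix its direction, with intervals that include 0 in ILC1-like, T cell-like, dendritic-like and macrophage-like cells.

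**Figure D3:**
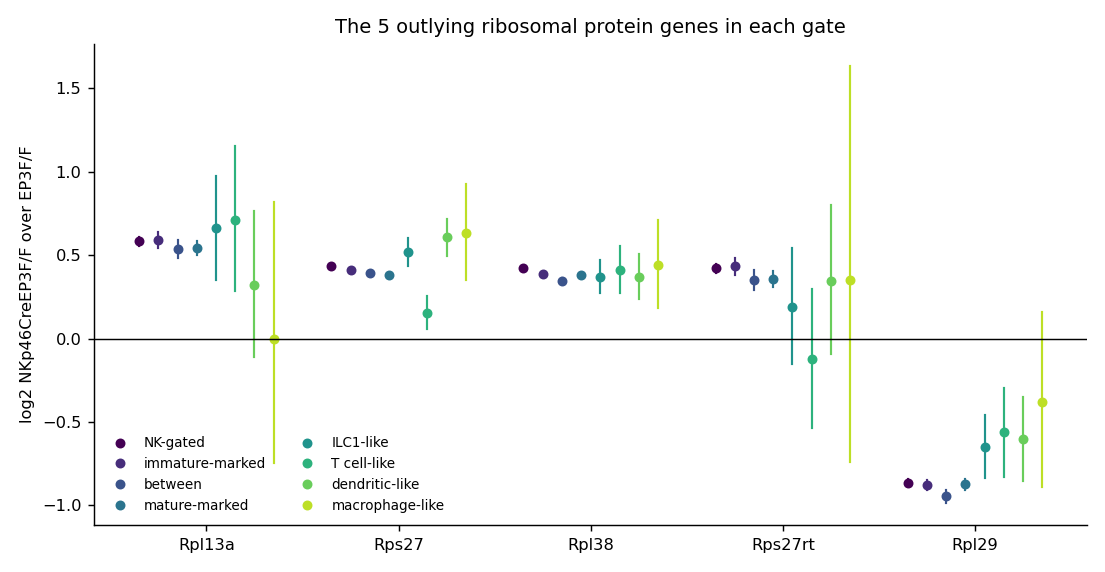
Log2 ratio of NKp46CreEP3F/F over EP3F/F (y axis) for the 5 outlying members in 8 gates (colours), each with its 95% counting interval (bars). Rpl29 lies below 0 and Rpl38 and Rps27 above 0 in every gate; the interval of Rpl29 reaches 0 only in macrophage-like cells.

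Sequence shared with other genes, many of them copies, limits how far a single row can be read. Over the last 300 bases, where 3' tags fall, 74 of the 86 members share a stretch of 50 bases with the transcripts of at least one other annotated gene, and 26 with a gene that has its own row in the tables. Not all of these genes are copies of the member: those listed for Rps16 include Brca2 and Foxo1, and those for Rpl23 include Nras and Stat2. Rpl29 shares such a stretch with 82 other genes, the most of any member. Of these, 2 have rows, and both were higher in the knockout: Gm17669 had 20 UMIs in the knockout and 4 in the control, and Gm3550 had 49 UMIs in the knockout and 7 in the control (log2 3.54, counting interval 2.39 to 4.93). Adding both rows to Rpl29 left its log2 ratio at -0.86. How reads that match several copies were counted is not given in the sources used here, and their part in the ratio of Rpl29 was not tested. Rpl13a shares a stretch with 6 other genes, whose 2 listed rows held at most 22 UMIs in either library, and Rpl38 with 5, none of them listed. Rps27 and Rps27rt share a stretch with each other: Rps27rt took 5.04% of the UMIs of the pair in the knockout and 5.08% in the control, and whether reads of one were counted in the row of the other was not tested.

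Genes with few annotated exon bases tended to be higher in the knockout library as a whole. Exon length here counts every base covered by any annotated exon of a gene, so it can exceed the length of the transcript that is made. Over other measured genes the Spearman correlation of the log2 ratio with exon length was -0.51 (across genes, which are not replicates), and over the members it was -0.26. In the shortest of 8 length classes (183 to 1945 exon bases) the other genes had a median log2 ratio of 0.21 and the 45 members in it 0.07. Transcript length itself was not measured, and its part in the single-gene ratios was not tested.

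Among ribosomal proteins whose symbols fall outside the rule, Fau, a 40S protein made as a fusion to a ubiquitin-like protein, had 5940 CPM in the knockout and 5318 in the control (log2 0.16). Rack1, a signalling scaffold on the 40S subunit, had 2041 CPM in the knockout and 1936 in the control (log2 0.08). Both lay under 0.32.

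Among the lists of genes that make, drive or use ribosomes, most members past the bound were lower in the knockout, as were most genes over the whole table. Of 26 measured genes of ribosome biogenesis in the nucleolus, 8 were lower by at least 0.32 and 0 higher, a median log2 ratio of -0.21, among them the helicase Ddx21 (73.5 CPM in knockout and 125.7 in control, log2 -0.77), the snoRNP protein Nop58 (-0.68) and Bysl (-0.65), needed to mature the 40S subunit. Of 27 translation initiation factors, 6 were lower and 0 higher (median -0.10): the scaffolds Eif4g2 (234.9 and 417.4 CPM, -0.83) and Eif4g1 (-0.78) and the subunit Eif3a (-0.67) led. Of 10 elongation factors and other TOP genes, 1 was lower, the poly(A)-binding protein Pabpc1 (586.3 and 849.6 CPM, -0.54), and 0 were higher (median -0.05). The background is 29.1% of all genes lower, which these shares of 8 in 26, 6 in 27 and 1 in 10 stand near or under, and 14.8% higher.

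Of 11 RNA polymerase I genes, 2 were lower (the rDNA transcription factor Ubtf, -0.87, and the largest subunit Polr1a, -0.50) and 1 higher (Polr2e, a subunit shared between polymerases, 0.48). Of 14 genes of mTORC1 and TOP control, 4 were lower and 1 higher. The 3 with the largest ratios were Larp4 (24.5 CPM in knockout and 46.6 in control, log2 -0.92), the mTORC1 subunit Rptor (-0.77) and the TOP-binding protein Larp1 (42.5 and 71.5 CPM, -0.75). Of 8 genes of p53 and its targets, which respond when ribosome assembly fails, 3 were lower (Ccng1, -0.52, and Trp53inp1, -0.42, among them) and 1 higher, the pro-apoptotic Bbc3 (107.8 and 52.7 CPM, log2 1.03). The 2 measured snoRNA host genes, Snhg6 (0.17) and Snhg12 (-0.0027), lay under 0.32. Mitochondrial ribosomal protein genes, 74 measured, had a median of 0.14 with 12 higher and 4 lower. Over all measured genes 29.1% were lower and 14.8% higher by at least 0.32, so none of these counts is read as a result about its list.

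Within each library, ribosomal protein RNA took a smaller share of UMIs in the NK cells marked as more mature. NK cells mature in the spleen as Cd27 is lost and Itgam (CD11b), Klrg1, Zeb2 and S1pr5 are gained. The cells had been sorted as positive for both CD27 and CD11b. Both marked states therefore lie within that sorted population, and the differences do not cover NK cells outside the sort. Cells were split by 9 mature and 8 immature marker genes after each was thinned to 1500 UMIs of genes outside the rule, so that the split could not follow from the ribosomal share: a surplus of at least 2 UMIs on either side put a cell in the mature-marked or immature-marked state. In the knockout the share was 24.5% in 2848 mature-marked cells and 26.6% in 3734 immature-marked cells, a difference of -2.02 percentage points, with 25.1% in the 2036 cells between. In the control it was 23.6% in 5414 mature-marked cells and 25.6% in 1985 immature-marked cells, a difference of -1.94 points, with 24.7% in the 2304 between. The order of the states was the same in both libraries. Mature-marked cells were somewhat shallower, with medians of 3698 UMIs against 3970 in immature-marked knockout cells and 5626 against 6096 in the control. Within the 5 depth classes of each library the difference lay between -2.03 and -1.43 points in the knockout and between -1.73 and -1.44 in the control. Of the marked cells, 1203 in the knockout and 1387 in the control sat exactly at the bound of 2 UMIs.

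This was a small and even shift of most members rather than a change in a few. Mature-marked over immature-marked, 72 of the 83 members were below 0 in both libraries, where 29.0% of all 6957 genes measured in these states and 29.5% of those of at least 100 CPM were. The members' median log2 ratio was -0.12 in the knockout and -0.11 in the control, against 0.01 and 0.02 over all genes. No member lay 0.32 or more from the members' median in the same direction in both libraries, where 2.75% of all genes, and 3.40% of those of at least 100 CPM, lay that far from theirs. The order of the members was much the same in the libraries, which are separate cells and mice: Pearson's r across the 83 members was 0.88 and Spearman's rho 0.86, given as a description, since members share cells and depth.

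Rpl38 was the lowest in both libraries, with 5060 CPM in mature-marked and 5968 in immature-marked knockout cells (log2 -0.24, counting interval -0.25 to -0.22) and 3891 and 4572 CPM in the control (-0.23, -0.25 to -0.22). Also among the lowest were Rpl18, a 60S protein, at -0.23 in the knockout and -0.18 in the control, Rps15a, a 40S protein, at -0.21 and -0.18, and Rpl12, which sits at the base of the stalk, at -0.19 and -0.20. All of these intervals lay below 0.

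At the upper end, 8 members were above 0 in both libraries, where 39.3% of all genes were. Rpl7l1, a paralogue of Rpl7 known from ribosome assembly, stood at 0.06 in the knockout and 0.12 in the control, Rpl31 at 0.05 and 0.04, Rps27l at 0.03 and 0.05, and Rps19bp1, which is not a subunit protein, at 0.04 and 0.02. Of these 4 only Rpl31 had counting intervals above 0 in both libraries (0.01 to 0.09 in the knockout and 0.0038 to 0.07 in the control). Rps2 was the one member with an interval above 0 in the knockout (log2 0.10, 0.08 to 0.13; 2166 CPM mature-marked and 2017 immature-marked) and below 0 in the control (-0.02, -0.04 to -0.0031; 2136 and 2171 CPM).

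**Figure D4:**
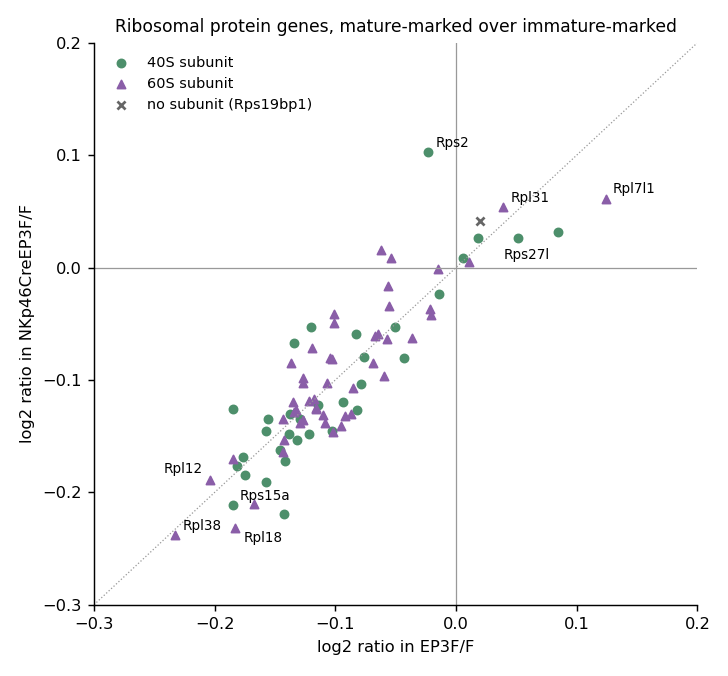
Log2 ratio of mature-marked over immature-marked NK cells for each measured member in NKp46CreEP3F/F (y axis) and EP3F/F (x axis), by subunit. The dotted line marks equal ratios; 72 of 83 members lie at the lower left, below 0 on both axes, with Rpl38 lowest, and 8 at the upper right.

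Other genes of the translation machinery did not all share this shift. Fau and Rack1 were below 0 in both libraries, as were 8 of the 10 elongation and TOP genes, among them Eef1b2, which reloads elongation factor with GTP (-0.20 in the knockout and -0.16 in the control), Tpt1 (-0.18 and -0.12) and Pabpc1 (-0.16 and -0.10). Eif5a was above 0 in both (0.15 and 0.09). Of 27 initiation factors 5 were below 0 in both libraries, and of 25 biogenesis genes measured in these states 6, with medians of 0.03 in the knockout and 0.03 in the control for the factors and 0.03 and 0.02 for biogenesis.

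Smaller gates inside the NK cells gave no single order in the libraries. Cells with at least 5 thinned UMIs of chemokine and early response genes (Ccl3, Ccl4, Nr4a3, Nfkbid and Egr2) are called activated. Their ribosomal share was 24.2% in 109 knockout cells and 24.0% in 424 control cells, against 25.6% and 24.3% in cells of none of these gates, a difference of -1.36 points in the knockout and -0.32 in the control. Cells with interferon-induced genes stood at 22.8% in 54 knockout cells and 23.4% in 47 control cells, -2.76 points from cells in none of the gates in the knockout and -0.88 in the control. For the median cell these differences were -1.96 points in the knockout and 0.34 in the control, so the direction in the control turned with the summary used. Dividing cells, known for a high demand for ribosomes, stood at 24.8% in 52 knockout cells, a difference of -0.81 points from the cells in none of the gates, and at 25.5% in 103 control cells, a difference of 1.19 points. Dividing cells were also the deepest, with medians of 6028 UMIs in the knockout and 8089 in the control.

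Types of cells outside the NK lineage differed far more from NK cells than the NK states differed among themselves. The T cell-like gate was led by Cd3d, Cd3e and Trac, and the macrophage-like gate by C1qa and Vcam1. The dendritic-like gate rests mostly on MHC class II genes, with few UMIs of Flt3 and Siglech, so the name is weaker. Gzma, an NK effector gene that no gate used, stood at 61.9 CPM in knockout and 96.2 in control T cell-like cells, 94.4 and 284.0 in dendritic-like cells and 113.5 and 189.4 in macrophage-like cells, against 9944 CPM in knockout and 8134 in control NK-gated cells. ILC1-like cells carried at least 3 UMIs of 2 or more ILC1 genes such as Cxcr6 and Il7r, a UMI of Ncr1 or Klrb1c and no UMI of Eomes. Gzma stood at 3686 CPM in these knockout cells and 2897 in control ones, nearer the NK-gated level than in the other types. Their Ncr1 stood at 1014 CPM in the knockout and 904.5 in the control, against 822.2 and 793.1 in NK-gated cells. This gate is therefore not clear of NK cells.

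Dendritic-like cells held a ribosomal share of 38.3% in 107 knockout cells and 35.0% in 80 control cells, 12.8 and 10.7 percentage points above the NK-gated cells of the same library, at median depths of 1930 UMIs in the knockout and 1641 in the control. T cell-like cells held 37.6% in 40 knockout cells, 12.1 points above NK-gated cells. The control held 19 such cells, under the minimum of 20 set for a share, at 38.4%. Macrophage-like cells were lower, with 19.8% in 134 knockout cells and 18.9% in 37 control cells, differences of -5.78 and -5.38 points from NK-gated cells, at median depths of 1410 UMIs in the knockout and 1151 in the control. ILC1-like cells, the closest relatives of NK cells, held 25.5% in 142 knockout cells and 23.5% in 48 control cells, differences of -0.03 points from NK-gated cells in the knockout and -0.86 in the control. Barcodes that failed the filters held 16.6% in the knockout and 14.9% in the control. The part of depth in these differences was not tested. The sizes rest on the gate: with no ceiling on NK receptor UMIs the differences were 5.91 points for T cell-like cells in the knockout, 5.81 and 3.33 for dendritic-like cells and -2.74 and -1.83 for macrophage-like cells, knockout first.

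T cell-like over NK-gated, 80 of the 83 members were above 0 in both libraries, where 21.2% of 6164 measured genes, and 25.1% of those of at least 100 CPM, were. The members' median log2 ratio was 0.56 in the knockout and 0.61 in the control, against -0.24 and -0.22 over all genes. A distance of 0.32 or more from the members' median in the same direction in both libraries was found for 7 members, where 35.2% of all genes, and 37.5% of those of at least 100 CPM, lay that far from theirs. Above the median were Rps19, a 40S protein mutated in human Diamond-Blackfan anaemia (5401 CPM in T cell-like and 2192 in NK-gated knockout cells, log2 1.30; 6332 and 2241 CPM in the control, 1.499), Rpl12 (6675 and 2826 CPM, 1.24; 7414 and 2758 CPM, 1.43), and Rps20, a 40S head protein (6376 and 2924 CPM, 1.12; 6780 and 3035 CPM, 1.16). Rplp0, which anchors the stalk, was the remaining one (0.91 in the knockout and 0.99 in the control). Rpl12 and Rplp0 are neighbours in the stalk of the 60S subunit. Below the median were Rps27l, a paralogue of Rps27 that p53 induces in human cells (154.7 CPM in T cell-like and 199.6 in NK-gated knockout cells, -0.37; 144.3 and 208.9 CPM in the control, -0.53, with both counting intervals including 0), Rpl10 (-0.04 and 0.19) and Rpl27 (0.16 and 0.15).

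Dendritic-like over NK-gated, 79 members were above 0 in both libraries, where 24.9% of 5589 measured genes and 43.2% of those of at least 100 CPM were, with a median log2 ratio of 0.55 in the knockout and 0.50 in the control, against -0.61 and -0.46 over all genes. Outlying by the same rule were 14 members, 6 above and 8 below, where 59.3% of all genes, and 65.1% of those of at least 100 CPM, lay that far from their median. Rps19 led again (6129 CPM in dendritic-like and 2192 in NK-gated knockout cells, log2 1.48; 5666 and 2241 CPM in the control, 1.34), then Rps26, a protein of the mRNA exit channel (4347 and 1797 CPM, 1.27; 4489 and 1963 CPM, 1.19), and Rps9, a protein of the 40S body (6297 and 2807 CPM, 1.17; 5477 and 2958 CPM, 0.89). The 6 outlying members above the median were all 40S proteins, which goes with a ratio of 60S to 40S UMIs of 1.16 in knockout and 1.15 in control dendritic-like cells. T cell-like cells had ratios of 1.12 and 1.08, against 1.19 in knockout and 1.22 in control NK-gated cells. These comparisons share the NK-gated cells, so Rps19 and Rps20, outlying in both, are not 2 separate observations.

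Rps19bp1 had the lowest ratio in knockout dendritic-like cells, but rests on 5 UMIs there and 4 in the control (log2 -0.61 in the knockout and -0.14 in the control, with both counting intervals including 0). Of the members low in dendritic-like cells, Rpl22l1 was under NK cells even in plain level, with 644.5 CPM in dendritic-like and 825.6 in NK-gated knockout cells (log2 -0.36, counting interval -0.59 to -0.13) and 574.7 and 786.0 CPM in the control (-0.45, -0.78 to -0.15). Rpl13a followed, at -0.16 in the knockout and 0.10 in the control. Rps27 and Rpl38, the 2 abundant members that stood above the rest in the knockout library, were close to their NK level in dendritic-like cells, at 0.16 in the knockout and -0.01 in the control for Rps27 and 0.11 and 0.17 for Rpl38. ILC1-like over NK-gated, 1 member was outlying, Rps19bp1 (log2 -0.35 in the knockout and -1.32 in the control), where 13.9% of 6810 genes, and 8.42% of those of at least 100 CPM, lay that far from their median, and the members' median was 0.01 in the knockout and -0.05 in the control. Rps19bp1 is a gene of low level and the control ILC1-like cells held 250976 UMIs in all, so its ratio rests on few UMIs here too.

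**Figure D5:**
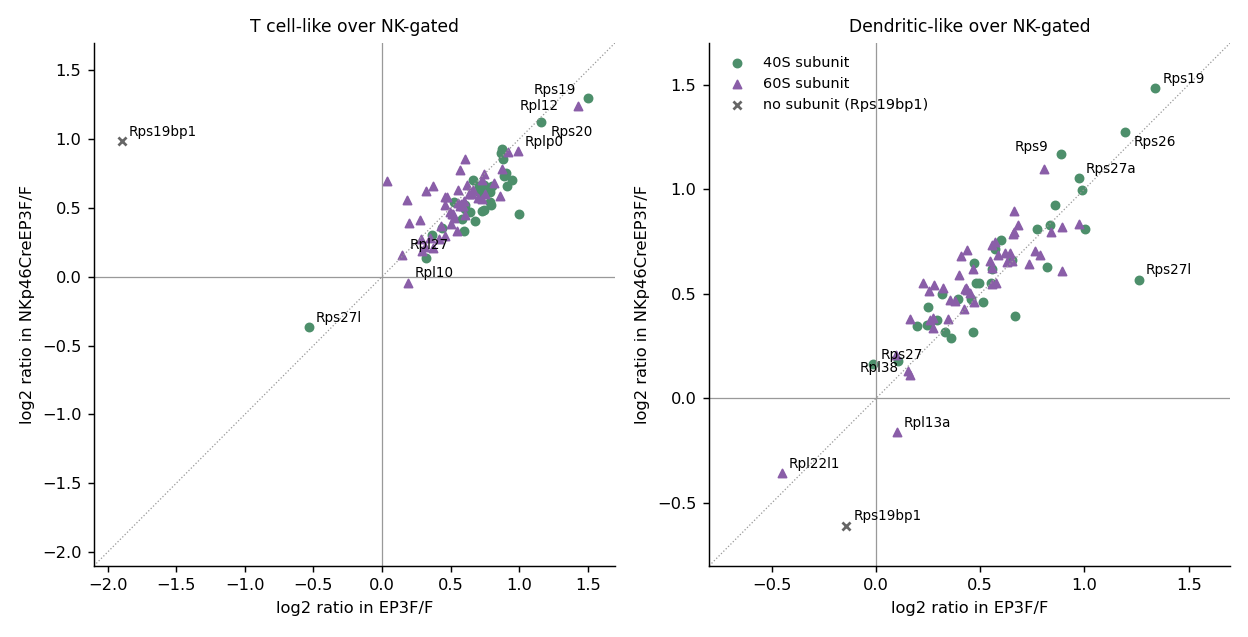
Log2 ratio over NK-gated cells of each measured member in NKp46CreEP3F/F (y axis) and EP3F/F (x axis), for T cell-like cells (left) and dendritic-like cells (right), by subunit. The dotted line marks equal ratios; Rps19 is the highest member in both panels, and Rps27l in T cell-like and Rpl22l1 in dendritic-like cells lie below 0 in both libraries.

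The pairs of Rpl22l1 with Rpl22 and of Rps27l with Rps27 differed in balance between cell types. Rpl22, whose loss in mice blocks the development of alpha-beta T cells, and Rpl22l1, which can take its place on the ribosome, gave 63582 and 30390 UMIs in knockout NK-gated cells, so Rpl22l1 made up 32.3% of the pair (32.04 to 32.64%), against 30.5% in the control (30.3 to 30.7%). In dendritic-like cells it made up 17.4% in the knockout (14.95 to 19.997%) and 16.7% in the control (13.5 to 20.2%), below the NK-gated value in both libraries by more than the counting intervals. T cell-like cells stood at 29.7% in the knockout and 28.1% in the control, with intervals that overlap the NK-gated ones. ILC1-like cells stood at 27.9% in the knockout (25.6 to 30.2%) and 25.3% in the control (21.96 to 28.9%), also below the NK-gated intervals in both libraries.

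Rps27l made up 2.30% of the pair it forms with Rps27 in knockout NK-gated cells and 3.22% in control cells, while its own log2 ratio between the genotypes was -0.07. In T cell-like cells it made up 1.26% in the knockout (0.85 to 1.79%) and 1.30% in the control (0.77 to 2.05%), below the NK-gated intervals in both libraries. In macrophage-like cells it made up 8.70% in the knockout (7.01 to 10.6%) and 14.2% in the control (8.76 to 21.3%). Its own level there was 357.3 CPM against 199.6 CPM in NK-gated knockout cells (log2 0.84, counting interval 0.51 to 1.15) and 399.9 against 208.9 CPM in the control (0.94, 0.20 to 1.58), while Rps27 was lower in macrophage-like cells (-1.18 in the knockout and -1.38 in the control). In dendritic-like cells Rps27l differed between the libraries, with 72 UMIs or 295.6 CPM in the knockout and 74 UMIs or 500.3 CPM in the control (log2 -0.76), and it made up 3.02% of the pair in the knockout (2.37 to 3.78%) and 7.43% in the control (5.88 to 9.24%). Macrophage-like cells held 8993 ribosomal protein UMIs in the control, under the 20000 set for counting outlying members, so no count is given for them. Rpl36al made up 29.2% of its pair with Rpl36a in knockout and 28.0% in control NK-gated cells, and Rpl7l1 2.30% and 2.71% of its pair with Rpl7. For these pairs no other cell type had an interval apart from the NK-gated one in both libraries.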

How the data were processed

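The authors deposited one matrix of raw counts per library, in which a value counts the UMIs of 1 gene under 1 barcode; no barcode with under 500 UMIs was in them. Cell Ranger 3.0.0, STAR, Seurat and the build GRCm39 are named in the submitters' processing notes; the settings are not given in the sources used here. Gene IDs (31011 of 31053) were matched to GENCODE on GRCm38 for length and position alone, and RefSeq starts are on GRCm38.p6.

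Cells needed at least 500 genes and at most 10% mitochondrial UMIs. Doublets were not called; cells with over 2 UMIs of another lineage's list left the NK gate. UMIs were summed per gate and library and scaled to CPM (numpy 2.4.6, scipy 1.17.1, pandas 2.3.3). Shares have exact binomial and ratios exact conditional binomial intervals at 95%. Only the ratio intervals were checked on simulated counts, which held counting error and no spread between cells or mice. PCR copies are already collapsed by UMI, and intervals cover counting error only. With 1 library of 2 pooled mice per group, no test was made.

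The members and lists were chosen with earlier results of these data known. Named genes are the 5 highest members, up to 6 outlying each way between genotypes, 5 each way for maturation and 3 each way per other type, the paralogues, Fau and Rack1, and the 3 largest ratios of each pathway list; Gzma, Rpl27, Rps29 and a few others were named after their values were seen. A few genes that this rule names, and the share with one of them added, are not reported here. Rps4l, B cell-like and neutrophil-like gates (at most 2 cells each) were not analysed here. Alternatives changed the cell filter, ceilings, thinning, marker lists, depth window, thresholds and scaling.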

Additional observations from a re-analysis of the deposited data

Results flagged for a closer look

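The row of Rpl27-ps3, a pseudogene of Rpl27 that the symbol rule leaves out, drew attention because it carried signal above the control. It stood at 64.0 CPM in knockout and 42.3 CPM in control NK-gated cells (log2 0.60, counting interval 0.52 to 0.68), and it shares a stretch of 50 bases near its end with Rpl27, which stood at 2159 and 1745 CPM (0.31).

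Dividing NK cells differed in direction between the genotypes. Their ribosomal share was 0.81 percentage points under that of cells in none of the small gates in the knockout (a difference of -0.81) and 1.19 points over it in the control, so that knockout minus control was -0.70 points among dividing cells, while it was 1.23 points among all NK-gated cells. In cells with interferon-induced genes knockout minus control was -0.58 points. The gates hold 47 to 103 cells per library, and these differences were not tested.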

How the results depend on the processing

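No paired analysis was possible because each genotype has 1 library and the result comes from no test. For the same reason no replicate was left out.

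The differences in ribosomal share given here (knockout minus control in NK-gated cells, the maturation states, and T cell-like, dendritic-like and macrophage-like cells) kept their sign under every alternative run; those of the activated, interferon, dividing and ILC1-like cells had none. Knockout minus control in NK-gated cells was 1.23 percentage points, and it was 1.28 with no cell filter, 1.10 with at least 1000 genes and at most 5% mitochondrial UMIs, 1.19 with no ceiling on other lineages, 1.39 with mitochondrial UMIs left out of the denominator, and 3.97 in cells of 3000 to 5000 UMIs. Over the 3 middle depth classes, chosen after seeing the data, it was 0.90.

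Mature-marked minus immature-marked was -2.02 points in the knockout and -1.94 in the control. With 3 marker UMIs it was -2.24 and -2.28, without Ltb and Lgals1 -2.70 and -2.74, in cells of 3000 to 5000 UMIs -1.96 and -1.47, and over the depth classes (added after seeing the data) -1.70 and -1.56, knockout first. In the knockout it was also -1.96 with no thinning and -1.95 without Cd27 and Itgam. Leaving out Ltb and Lgals1 also changed the state of many cells: in the control, 3993 cells were then immature-marked and 2167 mature-marked.

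With no ceiling on NK receptor UMIs, T cell-like minus NK-gated was 5.91 points in the knockout, dendritic-like 5.81 in the knockout and 3.33 in the control, and macrophage-like -2.74 and -1.83. With 0 NK receptor UMIs, dendritic-like stood at 13.6 and macrophage-like at -5.02 in the knockout. With 5 own marker UMIs, macrophage-like stood at -6.46 in the knockout and -5.96 in the control. Under 20 cells were left for these types under the stricter cell filter, and for T cell-like and control macrophage-like cells with 0 NK receptor UMIs, so no value was given.

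The 5 members outlying between the genotypes became 2 (Rpl13a and Rpl29) at a distance of 0.5 and 8 when measured from the median of all genes, which median-of-ratios scaling sets to 0; every other alternative gave 4 or 5. Both moves follow from the changed bound or zero, and the cause of the others was not tested. Depth limits Rpl39l, the small gates and the macrophage-like cells.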
